A study of Mus musculus with 8 samples.

Results

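Oxidative phosphorylation subunits are the proteins of respiratory complexes I to IV and of ATP synthase, complex V. They were chosen by gene symbol in GENCODE M21: mitochondrially encoded subunit genes (mt-Nd, mt-Co, mt-Cytb and mt-Atp) and nuclear subunit genes (Ndufa, Ndufb, Ndufc, Ndufs and Ndufv with a digit, Sdha to Sdhd, Uqcr genes, Cox4 to Cox8 and Atp5 genes). The rule gave 97 gene IDs, of which 96 were among the 37620 IDs counted in the files. Of these, 13 lie in the mitochondrial genome and 83 in the nuclear genome. By complex, the counts table held 44 genes of complex I, 4 of complex II, 9 of complex III, 21 of complex IV and 18 of complex V. The filter on low counts left 89 of the 96 genes, 12 mitochondrial and 77 nuclear, among 15355 genes tested. Those left out were mt-Nd4l and the isoform genes Cox4i2, Cox6a2, Cox7a1, Cox7b2, Cox8b and Cox8c.

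The respiratory chain passes electrons from NADH and succinate to oxygen and pumps protons across the inner mitochondrial membrane, and ATP synthase uses the returning protons to make ATP. Complexes I, III, IV and V are built from proteins of both genomes, whereas complex II is wholly nuclear encoded. Mitochondrial genes are copied as long transcripts from each strand and then cut into single RNAs, so their levels depend on processing and decay as well as on transcription. Red cell precursors need mitochondria for heme and iron-sulfur cluster synthesis and lose them at the end of maturation.

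The data are RNA sequencing of ribosomal RNA-depleted total RNA from C57BL/6 mouse erythroid progenitors, taken from fetal livers at E14.5 and differentiated in culture with erythropoietin for 24 h. Bloodlinc is a long noncoding RNA, and hnRNP U, the product of Hnrnpu, is a protein of the nucleus that binds RNA. The 8 libraries form 6 groups: a control hairpin (Bloodlinc_shCTL, n = 1) with Bloodlinc hairpins 1 and 2, an empty vector with a Bloodlinc vector (n = 1 each), and another control hairpin (hnRNPU_shCTL, n = 1) with hnRNPU hairpins 1 and 2. All groups share strain, stage and culture. The labels name no separate cultures or litters, and the 2 libraries of a knockdown carry different hairpins, so the p-values cover just the spread among these libraries, which may be technical.

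Several mitochondrial genes have near-identical annotated copies in the nuclear genome, and the sequences are shown since this bears on which counts can be placed. The copies lie side by side on the minus strand of chromosome 1. The first 90 bases of mt-Co2, the gene of cytochrome c oxidase subunit II (chrM:7013-7696, plus strand), are set beside its copy Gm28661 (chr1:24614885-24615565), and those of mt-Nd3, a complex I subunit (chrM:9459-9806, plus strand), beside Gm28438 (chr1:24612775-24613119). Positions are GRCm38, sequences come from the GENCODE M21 transcripts, and capitals mark bases that differ between gene and copy.
mt-Co2: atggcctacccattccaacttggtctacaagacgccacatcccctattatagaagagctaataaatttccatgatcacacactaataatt
Gm28661: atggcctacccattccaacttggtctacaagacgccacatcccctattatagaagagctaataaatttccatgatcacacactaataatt
mt-Nd3: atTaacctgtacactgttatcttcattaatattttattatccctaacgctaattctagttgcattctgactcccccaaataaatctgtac
Gm28438: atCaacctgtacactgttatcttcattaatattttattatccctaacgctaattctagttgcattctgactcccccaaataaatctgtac
Over the whole copy, all 681 aligned bases of mt-Co2 and 344 of 345 of mt-Nd3 were identical. Of all 100-base windows in each gene, the share also found in another annotated transcript was 99.9% in mt-Co3, 99.5% in mt-Co2 and mt-Atp6, 98.5% in mt-Nd4l and 97.6% in mt-Nd3. It was 60.8% in mt-Nd4, 30.8% in mt-Co1 and 3.19% in mt-Nd2. No window of mt-Nd1, mt-Nd5, mt-Nd6, mt-Cytb or mt-Atp8 was shared. Only annotated transcripts were searched. Among the copies on chromosome 1, Gm10222, the copy of mt-Nd4l, was the only one with an ID in the files, and it had 0 counts in every library.

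Gene counts ranged from 23682993 to 34540691 in 6 libraries, but hnRNPU hairpins 1 and 2 held 2931627 and 2612916. In these 2 libraries, 89.7% and 86.6% of uniquely placed counts fell outside genes, against 21.7% to 30.1% elsewhere, and 2 IDs with no annotation match took 32.6% and 22.6% of gene counts. The hnRNPU comparisons rest on these libraries. Levels are given as CPM, counts scaled to the library size after TMM normalisation. The level of Hnrnpu was 588 in the hnRNPU control hairpin library and 325 and 373 with its hairpins, but it was lower still, at 214 to 294 CPM, in the 3 libraries of the Bloodlinc hairpin set, which carry no hnRNPU hairpin. Bloodlinc stood at 4.46 CPM in the Bloodlinc control hairpin library, at 2.19 and 1.75 with its hairpins, at 1.26 with the empty vector and at 5.46 with the Bloodlinc vector. Erythroid markers were abundant in every library, with a summed level of 18061 CPM or more over 9 genes.

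Per kilobase of transcript, the 3 members with the highest levels were mitochondrial. The mean level over 8 libraries was 3818 CPM per kb for mt-Co3 (range 3259 to 5168), 3138 for mt-Co2 (1690 to 5684) and 2485 for mt-Co1 (947 to 4829), which encode the catalytic core of complex IV. These ranges overlap, so the order of the 3 genes did not hold beyond the spread over libraries. At the other end stood mt-Nd6, the only subunit gene on the light strand of mitochondrial DNA, at 59.0 CPM per kb (13.3 to 147), and mt-Atp8 at 17.5 (0 to 53.3). The mt-Atp8 reading frame overlaps that of mt-Atp6, and reads in the overlap can be counted as ambiguous. The mt-Nd4l gene had 1 count in all, in the empty vector library. It overlaps mt-Nd4 at its end alone (chrM:9877-10173, with mt-Nd4 from 10167), and 98.5% of its windows were shared. That share was 99.9% in mt-Co3, the member with the highest level, and why mt-Nd4l had almost no counts was not tested.

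Among nuclear members, Atp5b, the catalytic beta subunit of ATP synthase, had the highest level per length, at a mean of 668 CPM per kb (301 to 1151). In complex III, Uqcrh, the hinge protein, led with 310 CPM per kb (133 to 613), and Uqcrq was lowest with 23.0 (11.1 to 39.9). Cox4i1, a regulatory subunit of complex IV, had 249.7 CPM per kb (185 to 346), and Cox7a2l, grouped with complex IV by its symbol, had 33.4 (22.8 to 50.5). In complex I, Ndufa4 was highest at 243 (99.1 to 482). It is grouped here by its name, although its protein is now assigned to complex IV. The lowest member of complex I that passed the filter, Ndufa4l2, a paralog of Ndufa4 known as a hypoxia-induced gene, had 4.83 (0 to 17.1). Complex II ranged from 84.6 CPM per kb for Sdhd (44.2 to 111), a membrane anchor, to 15.7 for Sdhc (5.41 to 20.02), the other anchor. The median over nuclear members was 46.1 CPM per kb in complex I, 56.9 in complex II, 88.2 in complex III, 114 in complex IV and 90.4 in complex V.

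**Figure D1:**
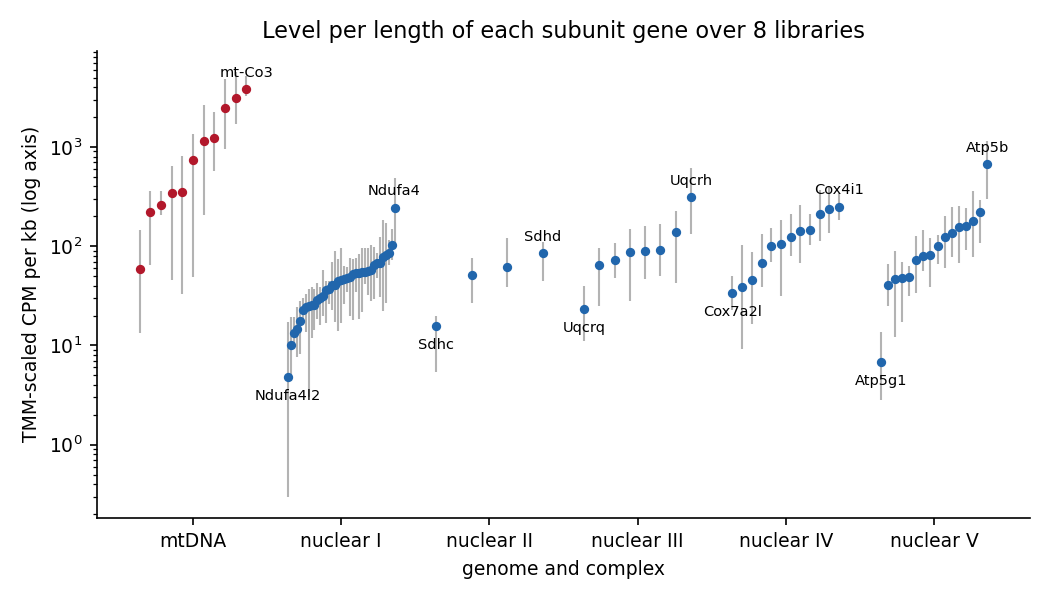
TMM-scaled CPM per kilobase of transcript, on a log axis, of 11 mitochondrial and 77 nuclear subunit genes, grouped by genome and complex. Points are means over 8 libraries and lines run from the lowest to the highest library; the line of Ndufa4l2 is cut off since its lowest value is 0, and mt-Atp8 and mt-Nd4l are not drawn. The mitochondrial points reach 3818 for mt-Co3, and the highest nuclear point is Atp5b at 668.

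The isoforms known from heart, skeletal muscle, lung or testis were almost all at or near 0. Cox4i2 had 0 to 6 counts in any library, Cox6a2 0 to 7, Cox7a1 0 to 11, Cox7b2 and Cox8c 0 to 1, and Cox8b had 0 counts in all 8 libraries. Their broadly expressed partners were high in every library, with Cox4i1 at 140 to 261 CPM, Cox6a1 at 76.8 to 223, Cox7a2 at 52.0 to 139, Cox7b at 69.1 to 153 and Cox8a at 37.6 to 142. The 4 muscle markers (Myh7, Actc1, Ckm and Myh6) summed to 0.788 CPM or less in each library.

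Cox6b2, the isoform of Cox6b1 best known from testis, was the exception. It had 9.89 CPM in the Bloodlinc control hairpin library, 8.503 and 5.12 with the Bloodlinc hairpins, and 9.36 and 9.20 in the empty and Bloodlinc vector libraries, but 56.6 in the hnRNPU control hairpin library and 44.9 and 28.0 with the hnRNPU hairpins. The 3 libraries of the hnRNPU knockdown thus stood above the other 5, including their own control, so this was a difference between sets of libraries and not between a hairpin and its control. Cox6b1 ranged from 69.2 to 228 CPM. Of the 3 genes that encode an identical mature c subunit of the ATP synthase ring, Atp5g3 was the most abundant per length, at a mean of 155 CPM per kb, against 49.4 for Atp5g2 and 6.85 for Atp5g1, and its level ranged from 48.5 to 184 CPM. The values per length depend on the transcript length used, which was 2675.5 bases for Atp5g1, 586 for Atp5g2 and 718.5 for Atp5g3. Not divided by length, the means were 111 CPM for Atp5g3, 28.9 for Atp5g2 and 18.3 for Atp5g1. Atp5g2 shared 86.4% of its windows with other transcripts, mainly Gm10175, so its counts are uncertain.

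The mitochondrial genes differed most between sets of libraries. In the 3 hairpin libraries of the Bloodlinc knockdown, control included, mt-Cytb, the cytochrome b of complex III, had 55.9 CPM in the control and 94.6 and 65.1 with the hairpins. The same gene had 1551 CPM with the empty and 1325 with the Bloodlinc vector, 1063 in the hnRNPU control hairpin library and 1333 and 1216 with the hnRNPU hairpins. The complex I genes mt-Nd1 and mt-Nd2 were split in the same way. For mt-Nd1 the Bloodlinc set held 211 CPM in the control and 281 and 199 with the hairpins, and the other 5 libraries held 956 to 2517. For mt-Nd2 the 3 values were 34.3, 58.3 and 34.98 CPM, and the others were 352 to 841.

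Other mitochondrial genes did the opposite. For mt-Co2, the Bloodlinc control hairpin library had 3116 CPM and the hairpins 3888 and 3392, whereas the empty vector had 1429, the Bloodlinc vector 1279, the hnRNPU control 1258 and its hairpins 1652 and 1156. For mt-Nd3, the levels were 627, 781 and 582 CPM in the Bloodlinc set and 199 to 372 in the other 5 libraries. Counts of mt-Atp8 were 196 in the Bloodlinc control and 248 and 214 with the hairpins, against 9 with the empty vector, 6 with the Bloodlinc vector, 16 in the hnRNPU control and 0 with both hnRNPU hairpins. The levels of mt-Co3 (2555 to 4052 CPM over all 8 libraries) and mt-Atp6 (139 to 246 CPM) overlapped between the sets.

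Of the 12 mitochondrial genes tested, 7 were below the other 5 libraries in all 3 Bloodlinc hairpin-set libraries, where 14.7% of all genes tested were, and 3 were above them, where 15.8% of all genes were. Among nuclear members 9 of 77 were below and 37 of 77 above, and of the 5381 genes of at least 20 CPM, 438 were below and 1416 above. This split was noticed after the values were seen and carries no test, and the labels name no batch for the sets. Summed over the 6 genes with under 5% of windows shared, the level was 431 to 588 CPM in the 3 libraries of the Bloodlinc set and 3225 to 5613 CPM in the other 5. Summed over the 5 genes with over 95% shared, it was 6695 to 7764 CPM and 4285 to 6099 CPM. As shares of all mitochondrial subunit counts, the former genes took 4.69% to 5.78% and 18.8% to 35.03%. Shared sequence went with the split in most genes, and its part in the split was not tested. The order did not hold for mt-Atp8, which shared no window and was higher in the Bloodlinc set, nor for mt-Nd4, with most of its windows shared and levels of 62.5 to 92.7 CPM against 466 to 883. How reads with several alignments were handled is not given in the sources used here. Markers of other cells differed between the sets as well, and their part in the split was likewise not tested. The 8 neutrophil markers summed to 41.3 to 100.5 CPM in the Bloodlinc set and to 920 to 9254 CPM in the other 5 libraries, and the 5 mast cell markers to 9.30 to 31.4 and to 43.7 to 153 CPM. The highest mast cell sum of each side was mostly Kit, with 28.1 CPM with Bloodlinc hairpin 1 and 115 CPM with the empty vector. Fcer1a reached at most 0.131 CPM, so the sum does not single out mast cells. The erythroid marker sums overlapped, with 38828 to 75815 and 18061 to 80898 CPM.

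**Figure D2:**
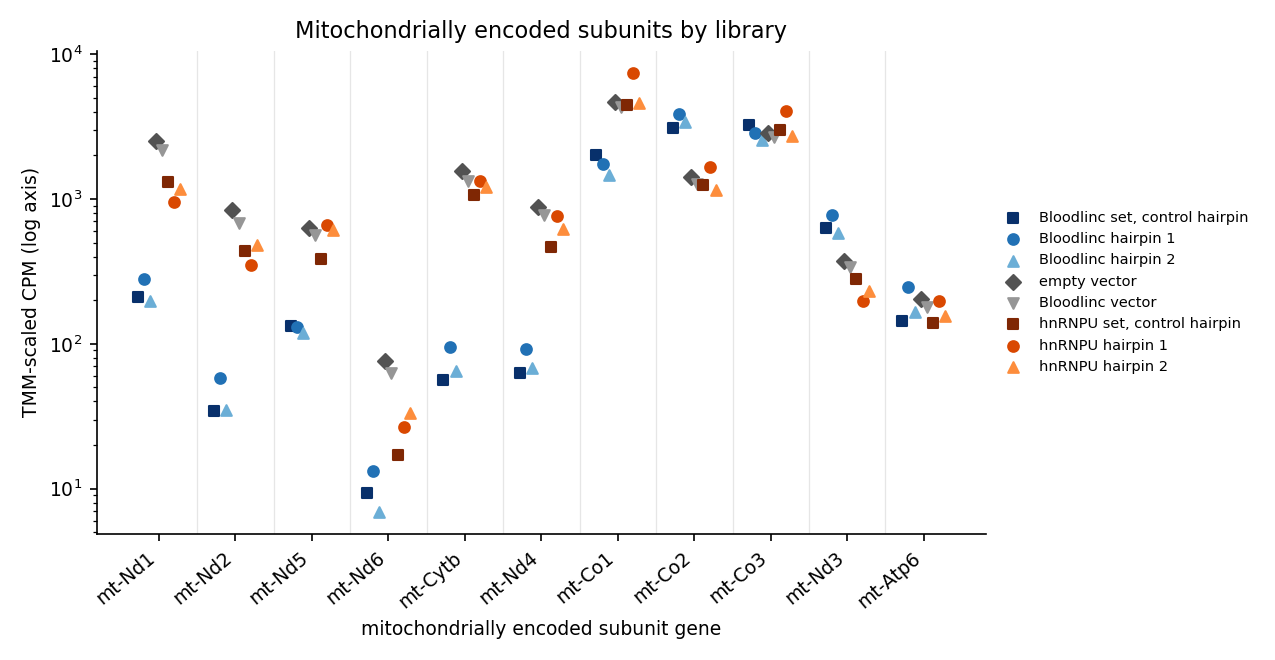
TMM-scaled CPM, on a log axis, of 11 mitochondrial subunit genes in each of the 8 libraries; each symbol is 1 library. The blue symbols of the Bloodlinc hairpin set lie below the others for mt-Nd1, mt-Nd2, mt-Nd4, mt-Nd5, mt-Nd6, mt-Cytb and mt-Co1, and above them for mt-Co2 and mt-Nd3; mt-Atp8 and mt-Nd4l, with values at 0, are not drawn.

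**Figure D3:**
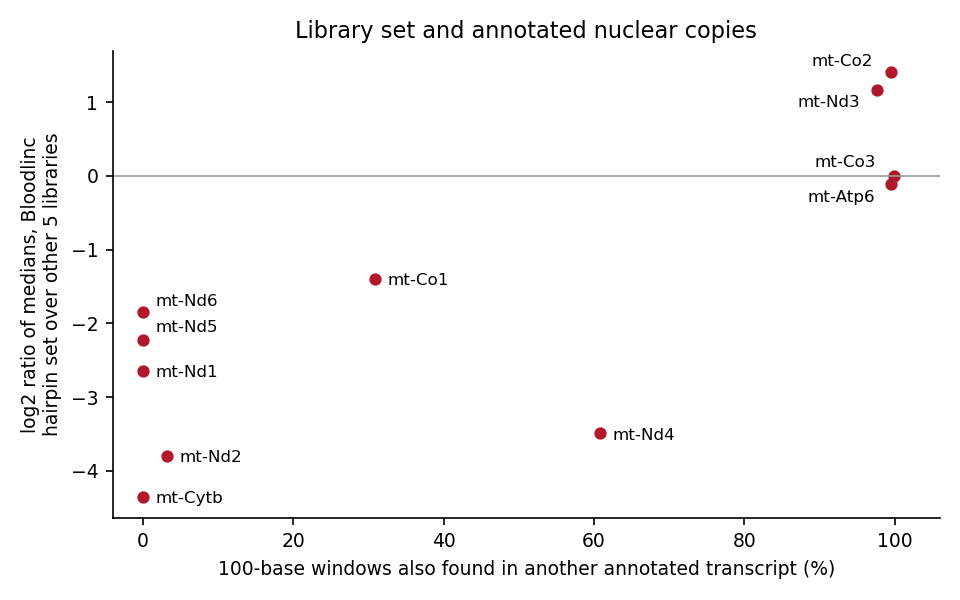
For 11 mitochondrial genes, the log2 ratio of the median CPM of the 3 Bloodlinc hairpin-set libraries over the median of the other 5, against the percentage of 100-base windows also found in another annotated transcript. mt-Nd4l and mt-Atp8 are not drawn; the latter shares no window and had higher counts in the Bloodlinc set, against the order seen here. The genes drawn with no or few shared windows lie well below 0, mt-Co2 and mt-Nd3 lie above 0, and mt-Nd4, with 60.8% shared, lies low.

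The nuclear members gave another view of the same libraries. Their summed level was 9826 CPM in the Bloodlinc control hairpin library and 8889 and 8220 with its hairpins, 5505 and 5522 with the empty and Bloodlinc vectors, 7151 in the hnRNPU control hairpin library, and 3931 and 4355 with the hnRNPU hairpins. Uqcrh had 335, 279 and 263 CPM in the Bloodlinc set and 72.9 to 128 in the other 5 libraries. In the other direction, Ndufa6, an accessory subunit of complex I, had 16.9, 13.2 and 30.4 CPM in the Bloodlinc set and 39.0 to 109 elsewhere.

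The ratio of mitochondrial to nuclear subunit counts within a library does not depend on scaling between libraries. It was 0.984 in the Bloodlinc control hairpin library (95% exact binomial interval 0.978 to 0.990, counting error only) and 1.15 and 1.05 with the Bloodlinc hairpins. The vector libraries had 2.91 (empty) and 2.60 (Bloodlinc). The hnRNPU control hairpin library had 1.80, and its hairpins had 4.49 (4.37 to 4.61) and 2.99 (2.92 to 3.05). The log2 ratio with the hnRNPU hairpins was thus 1.03 above its control on average, and hairpin 2 lay close to the empty vector library, which carries no hairpin. With 1 control against 2 hairpins an exact permutation test cannot go below p = 0.333, so no test was made. Control libraries alone ran from 0.984 to 2.91, a span larger than the step from the hnRNPU control to hairpin 2. The lower ratio in the Bloodlinc set did not hold for all mitochondrial genes. For those with under 5% of windows shared, it was 0.0461 to 0.0662 in that set and 0.451 to 1.02 in the other 5 libraries. For those with over 95% shared, it was 0.726 to 0.874 and 0.652 to 1.55.

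**Figure D4:**
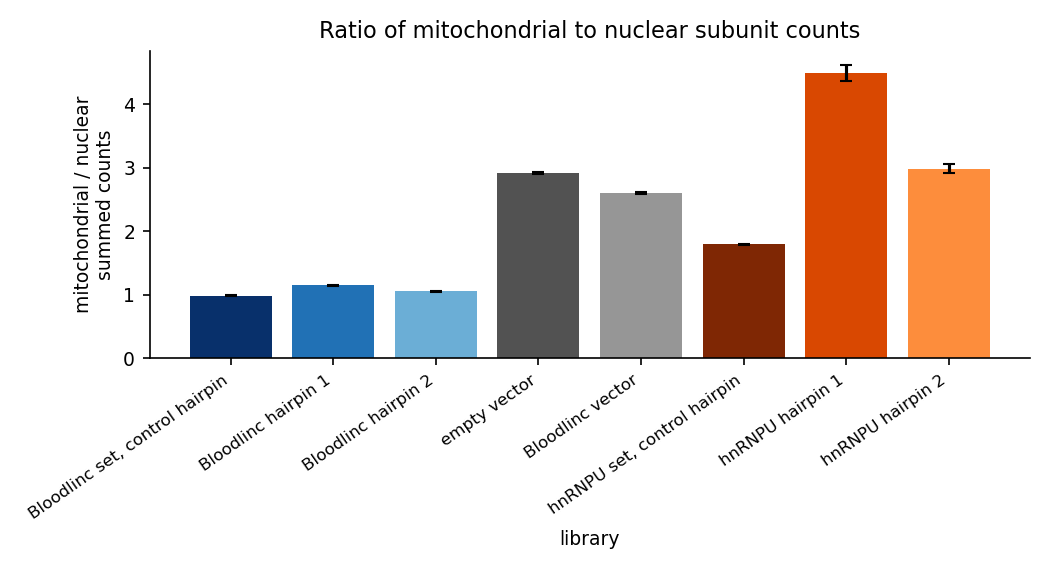
Ratio of summed counts of the mitochondrial to the nuclear subunit genes in each of the 8 libraries, with bars from 0 and 95% intervals that cover counting error only. Values run from 0.984 in the Bloodlinc control hairpin library to 4.49 with hnRNPU hairpin 1.

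Knockdown of Bloodlinc left no subunit gene past the threshold. With edgeR's quasi-likelihood test, 0 of 89 members had an adjusted p under 0.05, where 0.124% of all genes tested did. An unadjusted p under 0.05 was found for 1 member, Atp5mpl, against 3.99% of all genes. DESeq2 and limma-voom also called 0 members, each with 1 at an unadjusted p under 0.05. The median log2 fold change of the 12 mitochondrial genes was 0.15, with 8 higher and 4 lower, and that of the 77 nuclear members was -0.21, with 19 higher and 58 lower. Over all genes tested it was 0.06, with 8213 of 15355 higher and 6850 lower. Over the 5381 genes of at least 20 CPM it was -0.10, with 2157 higher and 3221 lower. Both hairpins lay below the control for 46 of 77 nuclear members, against 30.7% of all genes tested, and against 2218 of the 5381 genes of at least 20 CPM. Against the control hairpin library of the other knockdown, the mitochondrial median was -1.13 and the nuclear median 0.16, so both directions depended on the single control library. Markers moved as well, and their part in these medians was not tested. The erythroid marker sum was 75815 CPM in the control and 45198 and 38828 with the hairpins, and the neutrophil sum was 100.5, then 41.3 and 52.8. The macrophage sum was 4.05, then 3.42 and 24.5, of which Csf1r made up 22.5 with hairpin 2.

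Atp5mpl, a small membrane-sector subunit of ATP synthase, had the lowest estimate in this comparison. It had 59.6 CPM in the control and 33.3 and 18.8 with the hairpins, a log2 fold change of -1.19 ± 0.52 (SE, edgeR adjusted p = 0.993). Both hairpins were below every control library, since the empty vector had 44.5 and the hnRNPU control 54.1. Cox7a2, a small subunit of complex IV, went from 139 to 82.7 and 92.7 CPM (log2 fold change -0.66), and Atp5e, the epsilon subunit of ATP synthase, from 39.9 to 29.4 and 23.8 (-0.58). At the other end stood 3 genes with estimates of 0.57 to 0.62. Ndufv3, of the NADH-binding module of complex I, had 17.1 CPM in the control and 21.7 and 30.9 with the hairpins. Atp5g2 had 18.4 CPM, then 23.4 and 31.4, and Ndufb3 had 38.6, then 46.5 and 68.0. None of the 6 passed the test.

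By complex, the nuclear medians were -0.11 in complex I, 0.01 in complex II, -0.19 in complex III, -0.29 in complex IV and -0.33 in complex V. In complex V, 15 of 16 genes had a negative estimate and both hairpins were below the control for 13 of 16. Of the 5381 genes of at least 20 CPM, 3221 had a negative estimate and 2218 had both hairpins below. Among mitochondrial genes, estimates ran from -0.33 for mt-Co1 to 0.51 for mt-Cytb and mt-Atp6. Estimates of 0.19 for mt-Nd1, 0.44 for mt-Nd2, 0.12 for mt-Nd3, 0.36 for mt-Nd4, -0.10 for mt-Nd5, 0.11 for mt-Nd6, 0.22 for mt-Co2, -0.27 for mt-Co3 and -0.18 for mt-Atp8 had SE of 0.56 to 0.77, so that each was smaller than its error. Both hairpins were above the control for 5 of 12, against 31.5% of all genes tested, and below it for 3 of 12.

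Knockdown of hnRNPU came with lower estimates across the nuclear subunits, although none passed the threshold. The nuclear median was -0.72, with 73 of 77 genes lower, and the mitochondrial median was 0.22, with 8 of 12 higher, or 0.26 over 11 genes without mt-Atp8, whose fitted change rests on 0 counts in both hairpin libraries. The mitochondrial median was 0.07 without hairpin 1 and 0.41 without hairpin 2. Against the control hairpin library of the Bloodlinc set it was 1.63 and the nuclear median was -1.06, a contrast that also holds the difference between the sets. All genes tested had a median of -0.09, with 8197 of 15355 lower and 7021 higher. Genes of at least 20 CPM had -0.34, with 3632 of 5381 lower. Both hairpins were below the control for 73 of 77 nuclear members, against 42.3% of all genes tested, and for 68 of the 71 nuclear members of at least 20 CPM, against 3146 of all 5381 such genes. In bulk RNA, fewer cells of a type and less RNA per cell cannot be told apart. By edgeR's quasi-likelihood test 0 of 89 members had an adjusted p under 0.05, where 0.879% of all genes did. At an unadjusted p under 0.05, 15 members were lower, all nuclear, against 4.86% of all genes tested and 585 of the 5381 genes of at least 20 CPM, and none was higher. DESeq2 and limma-voom called 0 members, with 8 and 10 at an unadjusted p under 0.05.

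The nuclear subunits of every complex had negative medians. They were -0.71 in complex I (34 of 37 lower), -0.65 in complex II (4 of 4), -0.99 in complex III (8 of 8), -0.68 in complex IV (11 of 12) and -0.77 in complex V (16 of 16). Of all 15355 genes tested 8197 were lower, and of the 5381 of at least 20 CPM 3632 were. Nuclear members with under 5% of 100-base windows shared had a median of -0.76 over 55 genes. The size factors of DESeq2 and upper quartile scaling moved the median of all genes up by 0.12 and 0.16, and the nuclear median was then -0.57 and -0.53, which differs from that of all genes by -0.60 in both. The number of nuclear members with a negative estimate was 73 under each scaling.

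Ndufc1, an accessory subunit of the complex I membrane arm, had the lowest estimate among the nuclear genes. It had 26.2 CPM in the hnRNPU control (999 counts) and 2.36 and 10.2 with the hairpins (4 and 26 counts), a log2 fold change of -1.99 ± 0.61 (SE, edgeR adjusted p = 0.0937). The other 5 libraries had 17.4 to 29.3 CPM, so both hnRNPU hairpin libraries were the lowest of all 8. Uqcr10, a small subunit of complex III, went from 72.0 CPM to 21.9 and 26.8, a change of -1.56 ± 0.54 (SE, edgeR adjusted p = 0.185). The Bloodlinc hairpin 2 library, with 23.7 CPM, lay between them. Ndufv1, the subunit of complex I that binds NADH and FMN, went from 111 CPM to 30.7 and 50.8, a change of -1.44 ± 0.53 (SE, edgeR adjusted p = 0.251). All other libraries held 77.8 to 137 CPM of Ndufv1.

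The 6 nuclear members that follow had lower levels with both hairpins than in the control, and none passed the test. Atp5b stood at 1234 CPM in the hnRNPU control and at 577 and 689 with the hairpins, below the lowest of the other 5 libraries, which had 883. Atp5a1, the alpha subunit of ATP synthase, stood at 675 CPM and then at 268 and 407. Uqcrc1, a core protein of complex III, had 152 CPM in the control and 46.7 and 87.8 with the hairpins, and Cox5a, of complex IV, had 55.9, then 20.1 and 30.7. Uqcr11 had 65.5 CPM in the control, then 18.9 and 34.7. Sdha, the flavoprotein of succinate dehydrogenase, had 165 CPM in the control, then 112 and 145.

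Among nuclear members with a mean of at least 5 CPM, the highest estimates belonged to Ndufa6, Ndufs4 and Cox7a2l, and none passed the test. Ndufa6 had 58.5 CPM in the control and 109 and 55.9 with the hairpins, so the hairpins lay on both sides of the control, and its estimate of 0.49 was -0.07 without hairpin 1. Ndufs4, a subunit of the electron-input arm of complex I, had 34.0 CPM, then 50.8 and 43.7 (0.48 ± 0.56, SE). Cox7a2l had 24.5 CPM, then 37.2 and 27.2 (0.39 ± 0.56, SE). Among nuclear members tested, these last 2 were the ones with both hairpins above the control, against 28.6% of all genes tested. Ndufa4l2, with 11 and 0 counts in the hairpin libraries, was the other nuclear gene with a positive estimate, at 1.16.

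The mitochondrial genes had estimates on both sides of 0. Both hairpins were above the control for 6 of 12, and the estimates ran from -0.38 for mt-Nd3 to 0.81 for mt-Nd6, apart from mt-Atp8. For mt-Co1, the control had 4492 CPM and the hairpins 7460 and 4573. For mt-Nd5, the control had 385 CPM and the hairpins 659 and 613, and the vector libraries had 628 and 568. For mt-Nd6, the control had 17.2 CPM and the hairpins 26.6 and 33.5, and the vector libraries stood higher, at 76.0 and 62.4. Estimates were -0.31 for mt-Nd1, -0.07 for mt-Nd2, 0.58 for mt-Nd4, 0.72 for mt-Nd5, 0.26 for mt-Cytb, 0.42 for mt-Co1, 0.16 for mt-Co2, 0.19 for mt-Co3 and 0.34 for mt-Atp6. The 16 counts of mt-Atp8 in the control correspond to 0.420 CPM, and 3 counts in the hairpin libraries would be 1.77 and 1.18 CPM, so a change was not detectable at this depth.

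**Figure D5:**
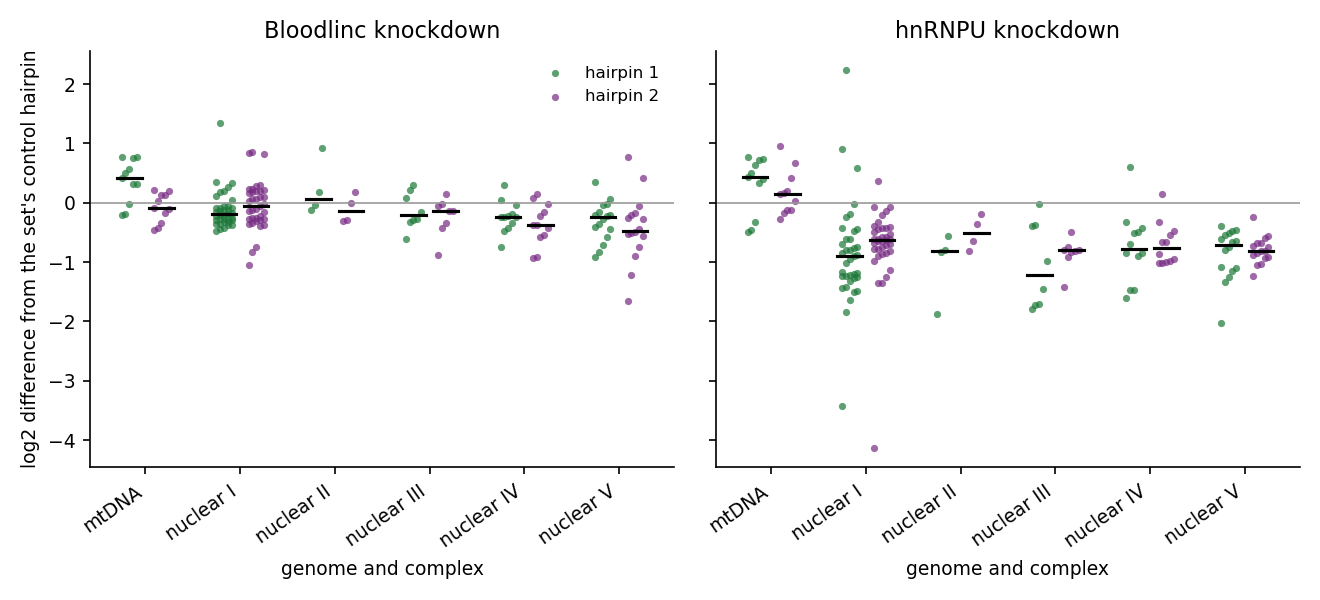
Log2 difference of TMM-scaled CPM (prior count 2) between each hairpin library and the control hairpin library of its set, for 11 mitochondrial and 77 nuclear subunit genes by complex; each point is a gene and black lines are medians. In the hnRNPU panel the nuclear medians of both hairpins lie below 0 in every complex and the mitochondrial medians above 0; the lowest point, with hairpin 2 in complex I, is Ndufa4l2 at 0 counts.

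Several features of the hnRNPU hairpin libraries moved with this result, and their part in it was not tested. The 8 neutrophil markers summed to 1591 CPM in the control and to 9254 and 3415 CPM with the hairpins, against 41.3 to 954 CPM in the other 5 libraries, and all 8 were detected. The rise lay mainly in S100a8, S100a9, Ltf (125, then 1297 and 335 CPM), Camp and Ngp. Changes were smaller for Mpo (389, then 435 and 571) and Prtn3 (58.8, then 68.0 and 71.7), and Elane lay on both sides of the control (27.0, then 26.6 and 31.9). The 8 macrophage markers summed to 21.1 CPM in the control and to 75.7 and 30.7 with the hairpins, with C1qa and Cd163 at 0 in both hairpin libraries. Among erythroid markers, Hbb-bs and Hba-a1 stood at 28358 and 4011 CPM in the control, at 53843 and 9846 with hairpin 1 and at 26843 and 5317 with hairpin 2, while Tfrc, the transferrin receptor, stood at 4713, 1526 and 2108 CPM. Across the 77 nuclear members, the log2 fold change had a Spearman correlation of 0.27 with genomic span, and of 0.27 across 5260 protein-coding genes of at least 20 CPM. All genes share the same libraries, and genes are not independent replicates.

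Genes that work with the subunits had negative medians in the hnRNPU comparison as well, and none passed in either direction in any of the 5 lists. Mitochondrial ribosomal protein genes, whose products translate the 13 mitochondrial reading frames, had a median of -0.81 with 75 of 76 lower. Lower estimates were found for 8197 of all 15355 genes tested and for 3632 of the 5381 of at least 20 CPM. The lists of assembly factors (47 genes), mitochondrial DNA transcription and RNA handling (31 genes) and carriers and electron transfer (17 genes) had medians of -0.55, -0.51 and -0.60. Regulators of biogenesis (14 genes) had -0.17. In the Bloodlinc comparison the medians of the 5 lists, in this order, were -0.13, 0.10, -0.08, -0.13 and -0.25, again with 0 genes called by edgeR in each list.

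Single genes of these lists showed the levels behind the medians. Cyc1, the cytochrome c1 of complex III, which falls outside the symbol rule, had 74.7 CPM in the hnRNPU control and 22.5 and 40.6 with the hairpins. Cycs, cytochrome c, had 42.0, then 15.4 and 30.3. Nrf1, a transcription factor of respiratory genes, had 85.6 CPM, then 30.7 and 40.6 (log2 fold change -1.26 ± 0.53, SE, edgeR adjusted p = 0.360), and Gabpa, the DNA-binding subunit of the factor GABP, had 75.5, then 43.2 and 54.0. Tfam, which packages mitochondrial DNA and starts its transcription, had 28.7, then 14.8 and 17.3, and Polrmt, the mitochondrial RNA polymerase, had 9.02, then 3.55 and 6.70. Lrpprc, which stabilises mitochondrial mRNAs, had 109, then 39.0 and 101, and its partner Slirp had 21.9, then 17.7 and 10.2. None of these genes passed the test.

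Some related genes were rare or varied mainly between sets. The coactivator gene Ppargc1a reached at most 0.339 CPM, and Ppargc1b ranged from 0.0513 to 4.04 CPM. Atpif1, which encodes the inhibitor of ATP synthase, had 520 CPM in the Bloodlinc control and 312 and 441 with the hairpins, 151 and 149 with the empty and Bloodlinc vectors, and 296 in the hnRNPU control against 210 and 212 with its hairpins. Ndufab1, the acyl carrier protein of complex I, ranged from 10.6 to 29.3 CPM, and Atp5s, a coupling factor, from 2.40 to 15.99. The mitochondrial ribosomal RNAs were still prominent after depletion, with mt-Rnr2 at 151022 to 309237 CPM and mt-Rnr1 at 6280 to 37811. The mt-Rnr1 level was 9701 CPM in the hnRNPU control and 37811 and 22626 with the hairpins (log2 fold change 1.64, not past the threshold), while mt-Rnr2 had 151022, then 309237 and 169912.

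A direct test of whether the effects of both knockdowns differed found no member. In the same edgeR fit, 0 of 89 had an adjusted p under 0.05 for the difference, where 0.326% of all genes did, with 1 member, Ndufc1, at an unadjusted p under 0.05. By DESeq2 and limma-voom the count was 0, with 0 and 1 members at an unadjusted p under 0.05. The median difference (hnRNPU minus Bloodlinc, log2) was -0.60 over nuclear members and -0.12 over mitochondrial ones, against -0.30 over all genes tested. Among nuclear members with a mean of at least 5 CPM, the lowest estimates were -1.79 for Ndufc1, -1.38 for Uqcr11 and -1.30 for Uqcrc1, and the highest were 0.53 for Ndufs4, 0.44 for Atp5mpl and 0.17 for Cox7a2l. Among mitochondrial members, apart from mt-Atp8, they ran from -0.51 for mt-Nd2 and mt-Nd3 to 0.82 for mt-Nd5.

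The Bloodlinc vector library differed little from the empty vector library in subunit levels. With 1 library per arm there is no test, and intervals cover counting error only. All 12 mitochondrial genes were lower with the Bloodlinc vector, by log2 differences of -0.50 for mt-Atp8 to -0.10 for mt-Co3, with a median of -0.18. For 11 of the 12 the interval lay below 0, against 8.66% of all genes tested and 592 of the 5381 genes of at least 20 CPM. For mt-Nd1, 2517 CPM with the empty vector stood against 2175 when Bloodlinc was expressed, which is -0.21 on the log2 scale (95% exact binomial interval -0.22 to -0.20), and mt-Cytb had 1551 and 1325 CPM. The 77 nuclear members had a median of -0.01 and a range of -0.15 to 0.23. None of the 89 members passed 1.5-fold in either direction, where 8.54% of all genes did, but just 13 of the 5381 genes of at least 20 CPM. The nuclear genes with the highest differences at a mean of at least 5 CPM were Atp5e (24.99 and 28.3 CPM, log2 difference 0.18), Ndufs4 (28.2 and 31.3, 0.15) and Cox5a (44.3 and 48.6, 0.13), and the lowest were Ndufa1 (16.2 and 14.6, -0.15), Ndufa5 (27.7 and 25.3, -0.13) and Ndufa12 (29.3 and 26.8, -0.13).

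Promoters of the nuclear members were searched for motifs of factors known to act on respiratory genes, as a feature that the symbol rule did not use. Promoter sequences from RefSeq (GRCm38.p6), running from 250 bases before to 50 after a start, matched 66 of the nuclear members, and a gene with several starts was counted if any of them held the motif. The motifs were that of NRF1 (GCGCA and GCGC with 1 base of any kind between them), that of GABP (CCGGAAG) and that of YY1 (AANATGGCG), on both strands. An NRF1 motif was found in 25.8% of member promoters and in those of 5.19% of all 27025 genes, or 7.17% of protein-coding ones. For GABP the shares were 24.2%, 9.93% and 12.9%, and for YY1 they were 15.2%, 2.76% and 3.64%. At least 1 of the 3 motifs was in 37 of 66 member promoters (56.1%), against 15.9% of all genes and 20.9% of protein-coding ones. A match is a description of the letters and not evidence of binding.

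A pair of promoter stretches is shown as examples of members that hold motifs of different factors, with the motifs in capitals. Sdhd, a complex II anchor, has NRF1 and GABP matches (chr9:50603864-50603953, minus strand), and Atp5j, the coupling factor 6 subunit of ATP synthase, has YY1 and GABP matches (chr16:84835006-84835089, minus strand). Both stretches lie before a start annotated by RefSeq. The Atp5j stretch lies within the gene as GENCODE M21 annotates it, from another start further upstream.
Sdhd: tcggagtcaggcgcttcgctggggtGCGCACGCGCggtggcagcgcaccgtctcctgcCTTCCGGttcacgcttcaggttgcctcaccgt
Atp5j: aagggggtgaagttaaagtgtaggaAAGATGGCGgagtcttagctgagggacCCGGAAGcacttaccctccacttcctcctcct
The Sdhd level was 94.7 CPM in the hnRNPU control and 54.4 and 60.7 with the hairpins, and 121 CPM in the Bloodlinc control with 137 with each of its hairpins. These stretches were chosen after the motif matches were seen.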

How the data were processed

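The libraries were made from rRNA-depleted total RNA with dUTP strand marking, per the labels' protocols. The submitters' processing notes name TopHat2 2.0.11, HTSeq and the mm9 build. The HTSeq version, the annotation release, the strand setting and the handling of reads with several alignments are not given in the sources used here. The authors deposited raw counts per gene, 1 file per library, with 37620 Ensembl IDs and 5 summary entries, which stayed out of library sizes and gave the shares of counts outside genes. Gene counts per library are given with the results, and intervals and floors (3 counts) cover counting error only.

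Symbols, biotypes and transcript lengths came from GENCODE M21 on GRCm38, which matched 87.4% of the IDs; its coordinates were not used for counting. Members were matched by Ensembl ID. Length is the median over a gene's principal protein-coding transcripts. Shared sequence was measured as the share of 100-base windows found on either strand in a transcript of another gene.

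A single edgeR 4.0.16 fit (R 4.3.3, TMM, filterByExpr, quasi-likelihood F-tests) held all 8 libraries in 6 groups, which left 2 residual degrees of freedom. A group of 1 library was taken to vary as the hairpin groups do. The prior degrees of freedom came to 397. Adjusted p-values are Benjamini-Hochberg over 15355 genes, with a threshold of 0.05. SE values are the log2 fold change divided by the square root of F. The fit was tested on simulated data. DESeq2 1.42.0, limma-voom (limma 3.58.1), other scalings, filters and control libraries, and fits without each hairpin library were alternatives.

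Members and lists were chosen with earlier results of these data known. Named were all mitochondrial members, the 3 highest and 3 lowest nuclear members of each comparison with a mean of at least 5 CPM, the most and least abundant nuclear member of each complex per length, the tissue isoforms and 15 related genes. Sdha, Atp5a1 and the promoter examples were chosen after their values were seen.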

Additional observations from a re-analysis of the deposited data

How the results depend on the processing

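Values here are log2 unless they are counts, and the cause of a change was not tested. No member was called under any alternative except the control hairpin library of the other knockdown, against which 12 members were called for Bloodlinc and 35 for hnRNPU. That contrast also holds the difference between the sets. Of all 15355 genes tested, 2264 were below the other 5 libraries in all 3 Bloodlinc hairpin-set libraries, and 2429 were above. The share of all genes called against that control is not given here, so the 12 and 35 are no result about the subunits. The replicate block was fitted on hairpin numbers, although hairpin 1 of one target is another hairpin than hairpin 1 of the other; it called 0 members in each comparison, and hairpin 1 minus hairpin 2 correlated at r = -0.07 between the knockdowns across 15355 genes. Leaving out 1 hairpin library at a time also called 0. Against the control of the other knockdown, and against 3 pooled controls, the Bloodlinc mitochondrial median was -1.13 and -1.42, and the nuclear median 0.16 and 0.15. Against the other control, the hnRNPU medians were 1.63 (mitochondrial) and -1.06 (nuclear). Leaving out 1 library at a time, the Bloodlinc mitochondrial median ran from -0.07 to 0.37, the hnRNPU mitochondrial median from 0.07 to 0.41, the Bloodlinc nuclear median from -0.21 to -0.19, the hnRNPU nuclear median from -0.86 to -0.71, and the log2 ratio of mitochondrial to nuclear counts from 0.10 to 0.22 (Bloodlinc) and 0.73 to 1.32 (hnRNPU). The Bloodlinc nuclear median was -0.24 with the size factors of DESeq2, -0.21 with upper quartile scaling, -0.23 without a filter, -0.22 without mitochondrial ribosomal RNA and unmatched IDs, and -0.20 without both hnRNPU hairpin libraries, a setting chosen after seeing the data. The hnRNPU nuclear median was -0.57 with the size factors of DESeq2 and -0.53 with upper quartile scaling.

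Single genes that turned direction did so mostly with another control. In the Bloodlinc comparison, against the other and the pooled controls, mt-Nd1 was -2.46 and -2.49, mt-Nd2 -3.24 and -3.23, mt-Nd4 -2.53 and -2.55, mt-Nd6 -0.77 and -1.77, mt-Cytb -3.73 and -3.48, mt-Atp8 4.39 and 1.34, and Atp5g2 -0.28 and -0.12. In the hnRNPU comparison, against the other control, mt-Nd1 was 2.34, mt-Nd2 3.61, mt-Co2 -1.15 and Cox7a2l -0.47, and against pooled controls mt-Nd6 was -0.19 and mt-Co2 -0.46. With DESeq2, its size factors and upper quartile scaling, mt-Nd2 was 0.0726, 0.0726 and 0.11 in the hnRNPU comparison; in the difference of the effects mt-Co2 was 0.12 in all 3, and mt-Atp6 was 0.0082, 0.0083 and 0.012. Leaving out 1 library at a time, the Bloodlinc estimates ran from -0.058 to 0.42 for mt-Nd1, -0.082 to 0.32 for mt-Nd3, -0.41 to 0.51 for mt-Nd6 and -0.51 to 0.11 for mt-Atp8. The hnRNPU estimates ran from -0.33 to 0.13 for mt-Nd2, -0.13 to 0.39 for mt-Co2, -0.13 to 0.44 for mt-Co3 and -0.072 to 0.90 for Ndufa6. Differences of the effects ran from -0.38 to 0.17 for mt-Co2, -0.42 to 0.086 for mt-Atp6 and -0.10 to 0.38 for Cox7a2l. Of the other values for single genes, 654 kept their direction and side of the threshold and 8 passed it against another control. Depth limits the hnRNPU comparison most, where 1 count was worth more in the shallow hairpin libraries.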
